A study of Homo sapiens with 36 samples.

Results

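The experiment described here is a treatment of JVM2 cells with 5 µM ibrutinib for 72 h, read by RNA sequencing of 3 libraries and compared with 3 libraries of cells given the DMSO vehicle for the same time. These are 6 of the 36 libraries of the study, which exposed the lines MEC1 (48 h), JVM2 (72 h) and EHEB (96 h) to fludarabine, ibrutinib, idelalisib or DMSO, with 3 libraries per group. Of the 37549 genes listed, the 17508 with enough counts in the 12 JVM2 libraries were tested, and what follows describes which functions rose and fell among them. The 3 libraries of a group are labelled only as triplicates. The paper states in general that results other than its glucuronidation assays rest on at least 3 independent experiments, without naming the sequencing. The p values therefore measure the spread between these samples, which may be technical. The library numbers in the labels place the DMSO libraries in another series than those of ibrutinib and idelalisib, and a difference between these series cannot be told apart from a drug effect. The 3 JVM2 libraries given 10 µM idelalisib for 72 h are used as a second reference. Libraries are named here 1 to 3 within a group, by rising library number.

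JVM2 is a B-cell line established from a prolymphocytic leukaemia, transformed with Epstein-Barr virus and carrying the translocation that joins CCND1 to the immunoglobulin heavy chain locus, so it represents a single malignant clone kept in culture. Ibrutinib forms a covalent bond with a cysteine in Bruton tyrosine kinase (BTK), which relays signals from the B-cell receptor through PLCG2 to calcium, NF-kB and ERK. Idelalisib inhibits the delta isoform of phosphoinositide 3-kinase, which acts beside BTK below the same receptor. Loss of these signals is known to lower survival, adhesion and proliferation of malignant B-cells.

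Libraries held between 34486439 and 53538925 counts, and values below are CPM, that is counts divided by the TMM-normalised library size, which compare 1 gene between libraries but not different genes. Mitochondrial transcripts took between 0.420% and 0.467% of the counts with DMSO and between 0.679% and 0.828% with ibrutinib. Cytosolic ribosomal protein genes took between 6.74% and 7.04% and between 5.67% and 6.11%, respectively. These shares moved with the treatment, and their part in other results was not tested. The summed level of 10 B-lineage markers lay between 3328 and 3512 CPM with DMSO and between 3588 and 4068 CPM with ibrutinib, and CD79A, the immunoglobulin-associated chain that defines B-cells, stood at 279, 299 and 302 CPM with DMSO and 313, 304 and 297 CPM with ibrutinib. Of 9 T and NK cell markers, CD2, CD3D, CD3G and CD8A were at 0 in all 6 libraries, and the myeloid markers LYZ and MPO were at 0 as well. Other members of these lists were detected. The T and NK cell list summed to 63.8 to 67.4 CPM with DMSO and 43.4 to 43.9 CPM with ibrutinib, mostly from TRAC. The myeloid list summed to 10.9 to 13.9 CPM and 17.3 to 19.2 CPM, mostly from ITGAM. In RNA of whole cultures, fewer cells of a kind or phase and less RNA per cell cannot be told apart.

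Many genes differed by small amounts between the ibrutinib and DMSO libraries. At an adjusted p under 0.05 in the edgeR quasi-likelihood test, 2531 genes rose (14.5% of those tested) and 2620 fell (15.0%). Only 385 of the first and 332 of the second changed by at least 2-fold, and the median absolute change of the called genes was 0.45 on the log2 scale. The median over all tested genes was 0.00. Counts of list members below are to be read beside the shares of 14.5% and 15.0%. Between the 3 ibrutinib and the 3 DMSO libraries, 7784 genes (44.5%) had CPM values that did not overlap. These include 5082 of the 5151 called genes, so for a called gene a lack of overlap adds little to the call. Scaling by library size in place of TMM shifted the balance to 3259 higher and 1978 lower, so that 62.2% of calls were higher in place of 49.1%, and it moved the median of all genes to 0.07. Length of the annotated exons went with the direction. Among the shortest genes (up to 1979 bases) 5.58% rose and 13.2% fell, and among the longest 23.3% rose and 13.0% fell. Of 1151 processed pseudogenes 22 rose and 126 fell, while 2340 and 2307 of 14081 protein-coding genes did.

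**Figure D1:**
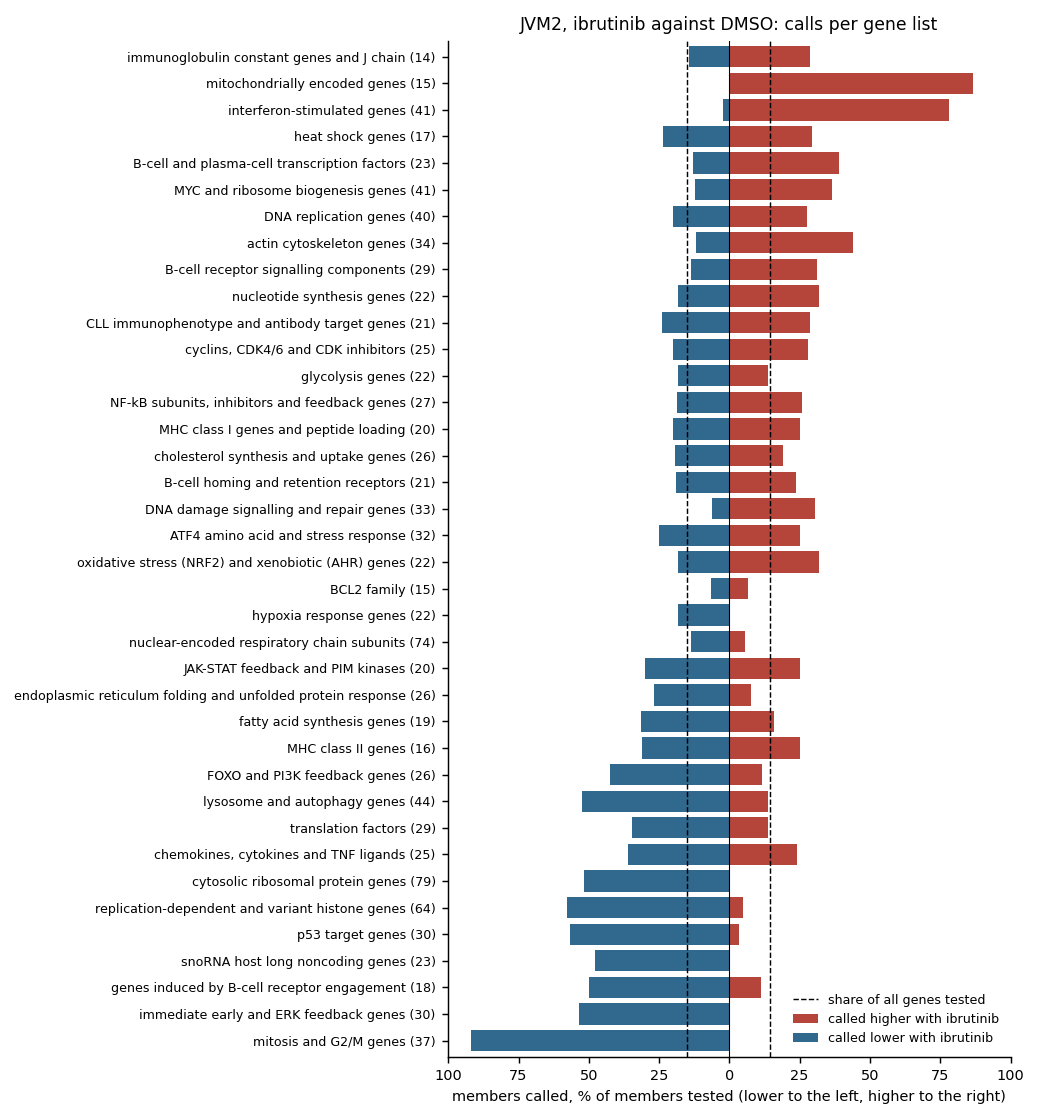
Share of tested members called higher (red, to the right) or lower (blue, to the left) with ibrutinib in each gene list of at least 10 tested members, in % (the number tested stands in brackets). Lists of cell type markers are not drawn. Dashed lines mark 14.5% and 15.0% of all genes. Mitosis and G2/M genes reach furthest to the left and mitochondrially encoded and interferon-stimulated genes furthest to the right.

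The drug's target itself did not pass the test. BTK stood at 75.3, 64.7 and 77.2 CPM with DMSO and 76.5, 80.8 and 79.45 CPM with ibrutinib, and these ranges overlapped (log2 fold change 0.12 ± 0.07 SE, adjusted p = 0.187). BTK lies on chromosome X (chrX:101349338-101390796, minus strand in GRCh38). Ibrutinib can bond with an equivalent cysteine in a small group of other kinases. In the list of these kinases, which includes BTK, 3 of 8 tested members rose and 0 fell. BLK, a SRC-family kinase of B-cells, had 103, 93.3 and 98.5 CPM with DMSO and 172.5, 173.5 and 181.5 CPM with ibrutinib. It rose 1.79-fold with no overlap between groups (log2 fold change 0.84 ± 0.05 SE, adjusted p = 1.58e-06). TXK and ERBB4 rose at low levels, from no more than 12 and 19 counts per DMSO library to between 24 and 45 and between 31 and 65. The median of the list was 0.16.

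Among the components that carry the receptor signal, 9 of 29 rose and 4 fell (median 0.12). MALT1, a protease on the path to NF-kB, had 41.4, 40.9 and 51.5 CPM with DMSO and 77.1, 86.8 and 106 CPM with ibrutinib. Every ibrutinib library lay above every DMSO library, and the gene rose 2.02-fold (log2 fold change 1.01 ± 0.14 SE, adjusted p = 4.17e-04). SYK, the kinase that docks on the receptor tails, rose 1.39-fold, and other members that rose (log2 changes) include INPP5D (0.75), RASGRP3 (0.68), TRAF3IP3 (0.56), SOS1 (0.43), PRKCB (0.36) and PIK3AP1 (0.25). Members that fell include PTPN6 (-0.35) and LYN (-0.34). PLCG2, the direct substrate of BTK, had 209, 213 and 222.5 CPM with DMSO and 203, 202 and 206 CPM with ibrutinib and did not pass the test (adjusted p = 0.143).

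Genes that the receptor and ERK switch on within minutes to hours fell together. None of 30 immediate early and ERK feedback genes rose and 16 fell, with a median of -0.80 against 0.00 over all genes. EGR1, a zinc-finger factor and standard readout of ERK activity (chr5:138465479-138469303, plus strand), had 11.8, 13.6 and 13.5 CPM with DMSO and 3.63, 2.985 and 3.77 CPM with ibrutinib. All ibrutinib libraries lay below all DMSO libraries (log2 fold change -1.90 ± 0.14 SE, adjusted p = 7.29e-06). ETV5, an ETS factor downstream of ERK, had 36.1, 40.1 and 37.4 CPM with DMSO and 11.98, 11.85 and 11.5 CPM with ibrutinib and fell 3.22-fold. FOSL2, an AP-1 subunit, had 2.32, 3.40 and 3.20 CPM with DMSO and 1.05, 0.857 and 0.5835 CPM with ibrutinib and fell 3.56-fold. DUSP8, a phosphatase of stress-activated kinases and no member of the list, had 8.17, 10.6 and 10.5 CPM with DMSO and 1.13, 1.27 and 0.827 CPM with ibrutinib (log2 fold change -3.19 ± 0.21 SE, adjusted p = 4.14e-06). Other members of the pathway did not pass the test: FOS was barely detected, DUSP6 lay at 0.206, 0.263 and 0.246 CPM with DMSO and 0.1145, 0.177 and 0.267 CPM with ibrutinib, and SPRY2 had 56.7, 63.1 and 63.1 CPM with DMSO and 58.7, 51.9 and 48.8 CPM with ibrutinib (adjusted p = 0.172).

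The promoter of EGR1 is shown because it holds the serum response element, the CArG box that ERK-driven serum response factor complexes read. The 120 bases lie at chr5:138465330-138465449 for EGR1 (plus strand) in GRCh38.p14, upstream of the RefSeq start, written 5′ to 3′ with the 2 CArG matches in capitals.
EGR1: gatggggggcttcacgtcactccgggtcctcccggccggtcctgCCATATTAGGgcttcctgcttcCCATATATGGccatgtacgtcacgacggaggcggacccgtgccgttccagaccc
Of 24 list members with a promoter in the table, 1 held a CArG match in the 250 bases before the start on either strand (4.17%), against 0.957% of 12222 promoters of tested genes. A match is a description of the letters and not a bound site.

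Genes induced by engagement of the B-cell receptor showed the same direction, with 9 of 18 lower and 2 higher (median -0.57). EGR1 and some others stand in both lists. CD69, an early activation antigen that retains lymphocytes in tissue, had 85.4, 94.2 and 91.6 CPM with DMSO and 37.02, 34.5 and 35.3 CPM with ibrutinib, and the groups did not overlap (log2 fold change -1.34 ± 0.06 SE, adjusted p = 2.77e-07). CCL3, a chemokine secreted by activated B-cells, had 356, 358 and 356 CPM with DMSO and 242, 236 and 248 CPM with ibrutinib and fell 1.47-fold. Its neighbour CCL4 had 51.8, 50.6 and 51.8 CPM with DMSO and 47.2, 41.55 and 46.1 CPM with ibrutinib and did not pass the test (adjusted p = 0.0588). EGR3 and NR4A1 fell by 1.34 and 1.05 on the log2 scale. The members that rose were CD83 (0.76) and TRAF1 (0.60), a surface activation marker and an adaptor of TNF receptors. MYC had 86.01, 106 and 9.67 CPM with DMSO and 52.4, 43.6 and 87.4 CPM with ibrutinib, so DMSO library 3 stood about an order of magnitude below its replicates and no difference could be shown (adjusted p = 0.909).

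Targets of FOXO factors, which are released when phosphoinositide 3-kinase and AKT signalling stops, moved unevenly: 11 of 26 fell and 3 rose (median -0.19). Without DMSO library 2 or ibrutinib library 2 the number that fell was 6 or 7 and 1 rose. PIK3IP1, an inhibitor of phosphoinositide 3-kinase, fell by 0.88 on the log2 scale, with 58.65, 42.6 and 61.1 CPM with DMSO and 31.5, 29.7 and 26.7 CPM with ibrutinib. CDKN1B, the cell cycle inhibitor p27, fell 1.501-fold, with 163, 175 and 177 CPM with DMSO and 118, 116 and 109 CPM with ibrutinib. FOXO1 had 98.8, 93.6 and 96.1 CPM with DMSO and 90.2, 81.9 and 93.7 CPM with ibrutinib (adjusted p = 0.1725). BCL6, a germinal centre repressor under FOXO control, had 3, 33 and 20 counts with DMSO and 0 counts in every ibrutinib library, at least 19.7-fold lower when 3 counts over the group are taken as the floor. Without DMSO library 2 or ibrutinib library 1 its adjusted p was 0.0623 or 0.0540.

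NF-kB subunits, inhibitors and feedback genes were split, with 7 of 27 higher and 5 lower (median 0.05). The feedback inhibitors TNFAIP3 and NFKBIA rose by 0.28 and 0.20 on the log2 scale. TNFAIP3 had 458, 464 and 461 CPM with DMSO and 584, 555 and 546 CPM with ibrutinib. CCL22, a chemokine for regulatory T-cells, had 302, 308 and 304 CPM with DMSO and 510, 465 and 439 CPM with ibrutinib and rose 1.55-fold. Its companion CCL17 had 0 counts in each DMSO library and 55, 33 and 56 counts with ibrutinib, at least 45.4-fold higher against the same floor. NFKBID (-0.57) was among those that fell. The number that fell was 2 without DMSO library 2, DMSO library 3 or ibrutinib library 3 and 3 without DMSO library 1 or ibrutinib library 2.

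Interferon-stimulated genes rose. Of 41 members 32 were higher and 1 was lower, with a median of 0.65, and 30 to 32 members were called higher when any 1 library was left out. ISG15, a ubiquitin-like modifier (chr1:1001138-1014540, plus strand), had 61.3, 55.6 and 52.4 CPM with DMSO and 152, 157 and 166 CPM with ibrutinib. All 3 ibrutinib libraries lay far above the DMSO libraries (log2 fold change 1.49 ± 0.06 SE, adjusted p = 2.77e-07). IFIT1, which binds foreign RNA ends, had 5.47, 4.21 and 4.77 CPM with DMSO and 16.55, 16.7 and 17.6 CPM with ibrutinib and rose 3.53-fold. MX1, a GTPase that blocks viral replication, had 323, 303 and 320.5 CPM with DMSO and 592, 578 and 598 CPM with ibrutinib and rose 1.87-fold. The other members that rose had log2 changes between 0.21 (IRF7) and 2.72 (RSAD2, a radical enzyme read at 0, 0.1435 and 0 CPM with DMSO and 0.401, 0.325 and 0.292 CPM with ibrutinib). IFIT1 overlaps LIPA on the opposite strand, and LIPA had 126, 126.5 and 133.5 CPM with DMSO and 128, 125.5 and 114 CPM with ibrutinib. GBP2, a guanylate-binding protein, was the only member called lower, with 115, 122 and 128.5 CPM with DMSO and 56.3, 61.9 and 56.4 CPM with ibrutinib. IFNG, which encodes the type II interferon itself, fell at a low level, with 0.529, 0.789 and 0.649 CPM with DMSO and 0.0954, 0.0887 and 0.219 CPM with ibrutinib (log2 fold change -2.28 ± 0.40 SE, adjusted p = 0.00159).

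The promoters of ISG15 and IFIT1 are shown because they hold the interferon-stimulated response element, read by interferon-activated transcription factors, here searched as GAAANNGAAA on both strands with overlapping matches allowed. The stretches lie at chr1:1013332-1013451 for ISG15 (plus strand) and chr10:89392458-89392577 for IFIT1 (plus strand) in GRCh38.p14 upstream of the RefSeq start, 5′ to 3′, with matches in capitals.
ISG15: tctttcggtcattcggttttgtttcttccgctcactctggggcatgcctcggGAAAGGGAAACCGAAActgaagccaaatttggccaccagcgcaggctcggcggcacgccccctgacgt
IFIT1: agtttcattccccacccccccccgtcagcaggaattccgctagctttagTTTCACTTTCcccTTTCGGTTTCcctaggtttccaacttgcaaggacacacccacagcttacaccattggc
Matches stood in 17 of the 31 list members with a promoter in the table (54.8%) and in 312 of all 12222 promoters (2.55%). Members were counted whatever their change with ibrutinib, so these shares describe the list and not the response.

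**Figure D2:**
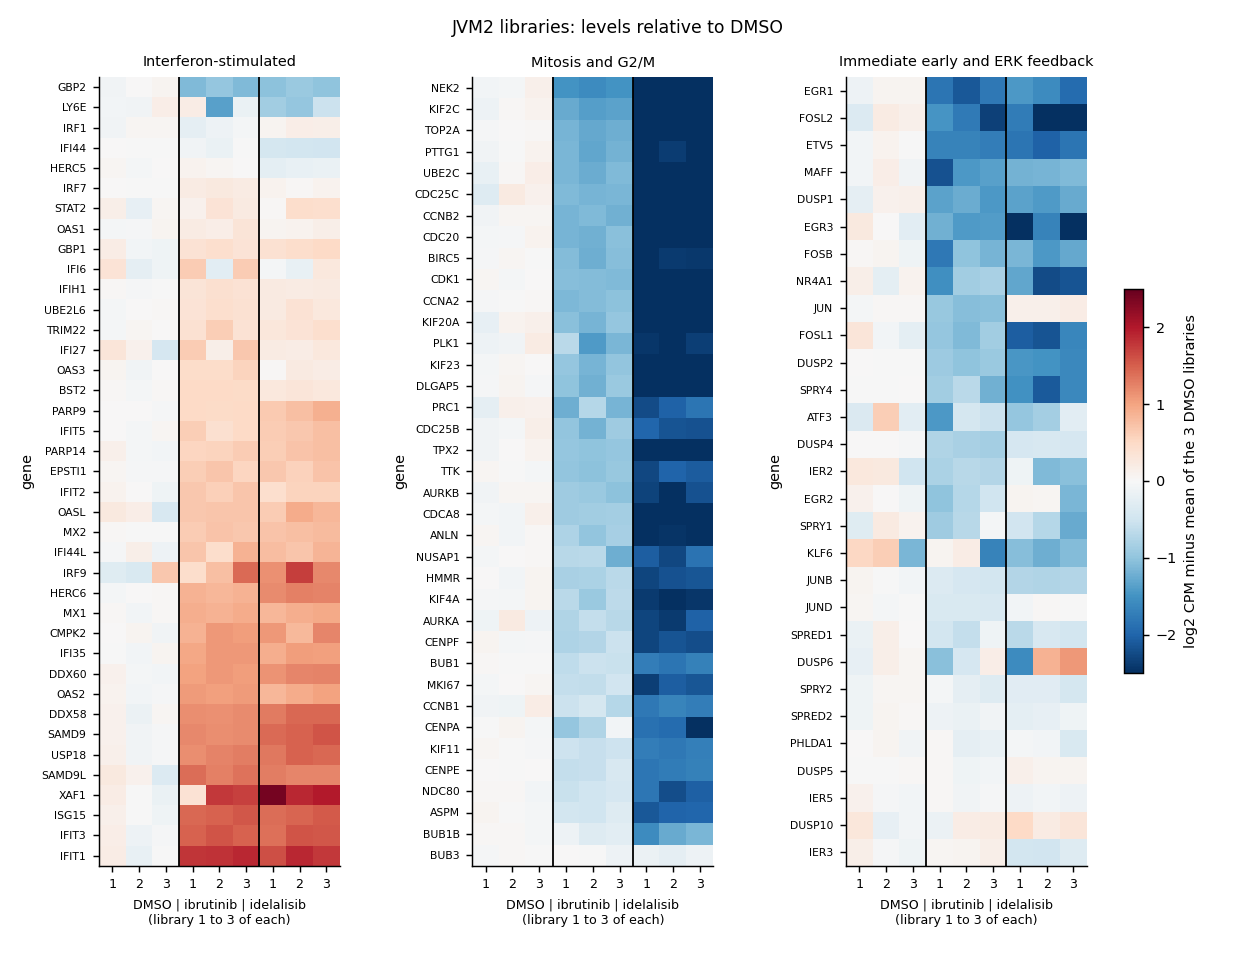
Level of each gene in each JVM2 library as log2 CPM minus the mean of the 3 DMSO libraries (columns, library 1 to 3 of each group; red higher, blue lower, colours end at 2.5), for 39 interferon-stimulated, 37 mitosis and G2/M and 29 immediate early and ERK feedback genes without a 0. The 3 ibrutinib columns are alike within each list and lie between DMSO and idelalisib for mitosis genes, and near idelalisib for interferon-stimulated genes.

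Antigen presentation genes moved in both directions. Of 20 class I and peptide loading genes 5 rose and 4 fell (median 0.04). The heavy chains HLA-E (-0.66) and HLA-B (-0.37) fell, and the proteasome activator and transporter genes PSME2 (0.58) and TAP2 (0.45) rose (log2 changes). B2M, the shared light chain, had 391.5, 5927 and 5932 CPM with DMSO and 4978, 4844 and 3098 CPM with ibrutinib, with DMSO library 1 far below every other library (adjusted p = 0.969). Of 16 class II genes 4 rose and 5 fell (median -0.12). The master regulator CIITA rose, with 85.3, 83.5 and 76.2 CPM with DMSO and 105, 103 and 114 CPM with ibrutinib, as did RFXAP (0.51), a part of its DNA-binding partner. Members that fell include HLA-DQA1 (-0.51), HLA-DOA (-0.45) and HLA-DRA (-0.38).

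Surface antigens used to classify or target chronic lymphocytic leukaemia were also split (6 of 21 higher, 5 lower, median 0.08). MS4A1, which encodes the rituximab target CD20, had 112, 97.2 and 96.1 CPM with DMSO and 126, 126 and 145 CPM with ibrutinib and rose by 0.38 on the log2 scale. CR2, the complement receptor and entry receptor of Epstein-Barr virus, rose by 1.32, and CD38 by 0.39 on the log2 scale. CD70, the ligand of CD27, had 264, 273 and 277 CPM with DMSO and 151, 150.5 and 160 CPM with ibrutinib and fell 1.76-fold. CD48 (-0.67) and CD52 (-0.35) fell as well. Of 21 homing and retention receptors 5 rose and 4 fell, among the latter both chains of the integrin VLA-4, ITGA4 (-0.52) and ITGB1 (-0.49). CXCR4 stayed under 1 CPM in all libraries, and CCR7 had 312, 314 and 311 CPM with DMSO and 416, 288.2 and 271 CPM with ibrutinib, the highest value in 1 ibrutinib library (adjusted p = 0.788).

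Of 25 chemokines, cytokines and TNF ligands 6 rose and 9 fell (median -0.25). CCL5 had 7.99, 8.83 and 9.09 CPM with DMSO and 3.91, 3.55 and 3.355 CPM with ibrutinib and fell 2.39-fold. TNF fell by 0.45 and TNFSF4, the OX40 ligand, by 1.05 on the log2 scale. TNFSF13B, the B-cell survival factor BAFF, had 3.41, 2.92 and 3.47 CPM with DMSO and 6.43, 8.13 and 7.999 CPM with ibrutinib and rose 2.30-fold. CXCL10, an interferon-induced chemokine, had 0.353, 1.20 and 0.358 CPM with DMSO and 2.31, 1.80 and 2.46 CPM with ibrutinib (log2 fold change 1.77 ± 0.38 SE, adjusted p = 0.00489). IL10 and LTA did not pass the test (adjusted p = 0.430 and 0.194).

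Genes of B-cell identity were mixed. Of 23 transcription factors of B-cells and plasma cells 9 rose and 3 fell (median 0.19). The number that rose was 5 without DMSO library 1 or ibrutinib library 1, and 1 fell without DMSO library 2 or ibrutinib library 1. IRF4, which drives plasma cell fate, had 1858, 1873 and 1863 CPM with DMSO and 2590, 2507 and 2480 CPM with ibrutinib and rose 1.35-fold. PAX5 rose by 0.16 on the log2 scale, a call lost without DMSO library 1 (adjusted p = 0.0502), DMSO library 2 (adjusted p = 0.0552) or ibrutinib library 1 (adjusted p = 0.0741). ID3 fell by 0.42 on the log2 scale. PRDM1, the plasma cell repressor, had 52.45, 58.5 and 51.25 CPM with DMSO and 52.96, 54.5 and 55.4 CPM with ibrutinib (adjusted p = 0.966). Of 14 immunoglobulin genes, IGHM had 5766, 5906 and 6116 CPM with DMSO and 6027, 5906 and 5838 CPM with ibrutinib (adjusted p = 0.989). The lambda constant genes IGLC2 (0.90) and IGLC3 (0.90) rose and IGKC (-0.87) and IGHD (-0.53) fell, and near-identical constant genes can share reads. Among JAK-STAT feedback genes 5 of 20 rose and 6 fell, including the survival kinases PIM3 (-1.05) and PIM1 (-0.79).

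Mitosis and G2/M genes fell nearly as a whole. Of 37 members 34 fell and 0 rose, with a median of -0.98 and changes from -1.525 to -0.04. TOP2A, the topoisomerase that untangles sister chromosomes (chr17:40388525-40417896, minus strand), had 391, 403 and 411 CPM with DMSO and 180, 166 and 172 CPM with ibrutinib. The groups did not overlap (log2 fold change -1.22 ± 0.04 SE, adjusted p = 2.67e-07). PLK1, the kinase that governs mitotic entry, had 52.3, 53.65 and 65.9 CPM with DMSO and 35.8, 21.5 and 26.0 CPM with ibrutinib (log2 fold change -1.04 ± 0.18 SE, adjusted p = 0.00156). NEK2, a centrosome kinase, and KIF2C, a microtubule depolymerase, fell 2.88-fold and 2.52-fold. MKI67, the source of the Ki-67 proliferation antigen, had 239.1, 249.9 and 258 CPM with DMSO and 164, 163 and 178 CPM with ibrutinib and fell 1.48-fold. CCNB1 fell 1.48-fold, with 51.3, 50.4 and 61.5 CPM with DMSO and 37.5, 39.7 and 33.2 CPM with ibrutinib.

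Promoters of 3 of these genes are shown because they hold the cell cycle genes homology region, TTTGAA, which the DREAM and B-MYB complexes read in G2/M genes, often beside CCAAT boxes. The stretches lie at chr16:23678769-23678888 for PLK1 (plus strand), chr15:59105026-59105145 for CCNB2 (plus strand) and chr17:40418007-40418126 for TOP2A (minus strand) in GRCh38.p14, 5′ to 3′, upstream of the RefSeq start, with TTTGAA in either orientation in capitals.
PLK1: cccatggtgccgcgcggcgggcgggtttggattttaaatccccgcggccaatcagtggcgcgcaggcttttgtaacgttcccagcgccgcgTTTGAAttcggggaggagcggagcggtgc
CCNB2: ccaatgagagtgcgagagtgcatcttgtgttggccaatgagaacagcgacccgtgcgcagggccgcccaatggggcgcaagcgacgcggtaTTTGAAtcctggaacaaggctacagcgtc
TOP2A: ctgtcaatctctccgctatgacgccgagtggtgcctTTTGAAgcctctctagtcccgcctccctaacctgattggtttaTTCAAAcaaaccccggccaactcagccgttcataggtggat
TTTGAA stood in the 250 bases before the start, on either strand, in 17 of 31 list members with a promoter (54.8%) and in 9.18% of 12222 promoters. CCAAT stood in 24 of 31 (77.4%) and in 35.4%, respectively. Here too the members were counted whatever their change, so the shares describe the list and not the response. In PLK1 and CCNB2 the match began 29 bases before the start.

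DNA replication genes did not follow. Of 40 members 11 rose and 8 fell (median 0.16). MCM3, a subunit of the replicative helicase, had 48.1, 33.7 and 45.2 CPM with DMSO and 99.3, 103 and 90.0 CPM with ibrutinib and rose 2.30-fold (log2 fold change 1.20 ± 0.11 SE, adjusted p = 3.10e-05). UHRF1, which maintains DNA methylation, and CDC6, a licensing factor, rose by 1.02 and 0.64 on the log2 scale. The licensing factors CDT1 (-0.78) and ORC1 (-0.70) fell. PCNA had 78.0, 79.3 and 76.1 CPM with DMSO and 87.2, 89.6 and 92.6 CPM with ibrutinib and rose 1.15-fold, a call that was lost without DMSO library 3 (adjusted p = 0.0560). RRM2 and MCM2 did not pass the test (adjusted p = 0.222 and 0.06215). Of 64 histone genes 37 fell and 3 rose (median -0.30), and their share of all counts was 0.622% to 0.639% with DMSO and 0.504% to 0.512% with ibrutinib. HIST1H2BJ had 144.3, 154 and 162 CPM with DMSO and 78.4, 82.5 and 81.8 CPM with ibrutinib and HIST1H1D fell 1.77-fold. Many histone genes are near-identical copies that can share reads.

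Cyclins and their inhibitors showed 7 of 25 higher and 5 lower (median 0.07). Without DMSO library 2 or 3 the number that rose was 2 or 3, and without ibrutinib library 1 or 3 it was 4. Without ibrutinib library 2 or 3 the number that fell was 3. CCND1, the cyclin that the JVM2 translocation drives, had 985.5, 931 and 950 CPM with DMSO and 900, 790.5 and 818 CPM with ibrutinib (log2 fold change -0.19 ± 0.05 SE, adjusted p = 0.0126). This call was lost without ibrutinib library 2 (adjusted p = 0.0839) or 3 (adjusted p = 0.0717) and in a fit of the 6 libraries alone (adjusted p = 0.0629). E2F2 (0.64) rose and E2F7 (-0.63) fell. CDKN1A, the p53-induced inhibitor p21, had 489, 503 and 503 CPM with DMSO and 414, 407 and 418 CPM with ibrutinib. These groups did not overlap, and the adjusted p was 0.564 with the spread of all 12 JVM2 libraries and 0.00264 in a fit of the 6 libraries alone.

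**Figure D3:**
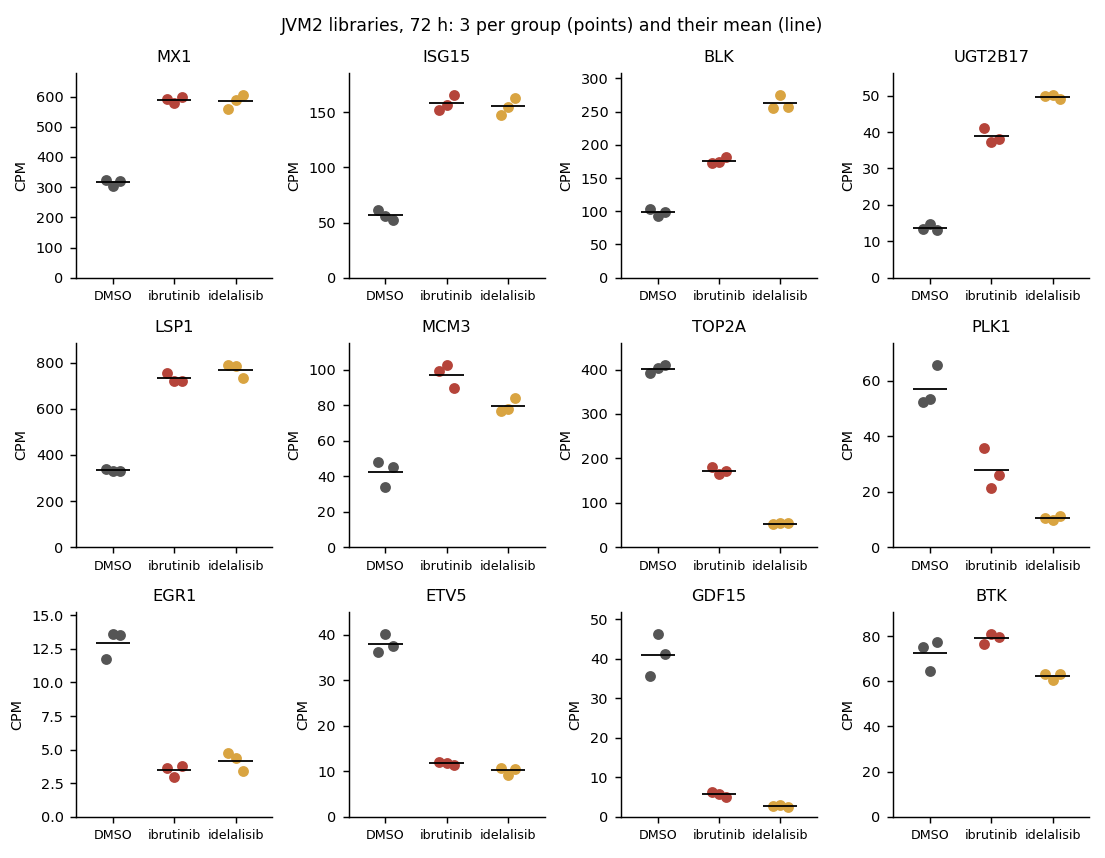
CPM of 12 genes in the 3 DMSO, 3 ibrutinib and 3 idelalisib libraries of JVM2 (points) with the group mean (line), on axes that start at 0. MX1, ISG15, BLK, UGT2B17, LSP1 and MCM3 lie higher and TOP2A, PLK1, EGR1, ETV5 and GDF15 lower with ibrutinib than with DMSO without overlap, and BTK overlaps.

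Targets of p53 fell in 17 and rose in 1 of 30 cases (median -0.31). GDF15, a stress cytokine (chr19:18374731-18389176, plus strand), had 35.6, 46.2 and 41.2 CPM with DMSO and 6.30, 5.76 and 5.11 CPM with ibrutinib and fell 7.15-fold (log2 fold change -2.84 ± 0.12 SE, adjusted p = 2.77e-07). PLK2, a stress-induced kinase, fell 3.13-fold, and ZMAT3, an RNA-binding protein under p53 control, had 1906, 1884 and 1865 CPM with DMSO and 1544, 1448 and 1471 CPM with ibrutinib and fell 1.27-fold. TRIM22 rose (log2 change 0.46) and also stands in the interferon list. MDM2 and FAS did not pass the test (adjusted p = 0.420 and 0.8925). Of 15 tested BCL2 family members 1 rose and 1 fell, and 3 rose without ibrutinib library 2 or 3. BMF, a sensor of cytoskeletal detachment, had 183, 171 and 169.5 CPM with DMSO and 223, 217 and 228 CPM with ibrutinib and rose 1.28-fold. BBC3, the p53 target PUMA, had 42.05, 46.6 and 41.7 CPM with DMSO and 33.0, 28.9 and 28.1 CPM with ibrutinib and fell 1.45-fold. BCL2 itself had 783, 764 and 742 CPM with DMSO and 777.5, 738 and 740 CPM with ibrutinib (adjusted p = 0.727). Of 33 DNA damage genes 10 rose and 2 fell, the former including PRKDC (0.63) and TP53BP1 (0.59). APEX1, one of those that fell, had 20.25, 106 and 112 CPM with DMSO and 23.8, 23.55 and 25.3 CPM with ibrutinib, so DMSO library 1 was not above the ibrutinib libraries and the other two were far above them. Without any 1 library other than DMSO library 1 the number that fell was 1, and APEX1 was not called (adjusted p = 0.0831 to 0.110).

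Genes that encode the ribosome and genes that build it did not move together. No cytosolic ribosomal protein gene of 79 rose and 41 fell (median -0.28). The number that fell was 25 without DMSO library 3 and 20 without ibrutinib library 3. RPS21 had 383, 385 and 378 CPM with DMSO and 252, 240.1 and 244 CPM with ibrutinib and fell 1.56-fold. RPS6 had 1753, 1804 and 1879 CPM with DMSO and 1445, 1490 and 1409 CPM with ibrutinib and fell 1.25-fold. None of 23 host genes of small nucleolar RNAs rose and 11 fell (median -0.49). SNHG1 had 33.9, 32.5 and 27.6 CPM with DMSO and 13.9, 13.2 and 13.0 CPM with ibrutinib and fell 2.34-fold, and GAS5 had 132.8, 129.6 and 136.5 CPM with DMSO and 92.8, 79.3 and 87.8 CPM with ibrutinib and fell 1.53-fold. Many genes of both kinds carry a 5′ terminal oligopyrimidine tract, through which growth signals control their translation. The part of gene length in these counts was not tested. Among 29 translation factors 10 fell and 4 rose. Of the remaining growth genes, 15 of 41 MYC and ribosome biogenesis genes rose and 5 fell (median 0.19). Those that rose include MAX (1.17), RRP9 (0.72), NOP56 (0.37) and POLR1B (0.32), and NPM1 fell by 0.69 on the log2 scale. Nucleotide synthesis genes were split (7 higher and 4 lower of 22), with CAD, the first enzyme of pyrimidine synthesis, at 55.6, 57.65 and 53.1 CPM with DMSO and 91.4, 81.1 and 95.2 CPM with ibrutinib, and IMPDH2, the rate-limiting enzyme of guanine nucleotide synthesis, at 145, 163 and 163 CPM with DMSO and 93.5, 94.9 and 88.04 CPM with ibrutinib.

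Transcripts of the mitochondrial genome rose, 13 of 15 with none lower (median 0.79). MT-CO1, a cytochrome oxidase subunit, had 3262, 3124 and 2943 CPM with DMSO and 4299, 4521 and 5325 CPM with ibrutinib (log2 fold change 0.60 ± 0.13 SE, adjusted p = 0.00644). MT-CYB, the cytochrome of complex III, had 168, 157 and 153 CPM with DMSO and 320, 353 and 384.5 CPM with ibrutinib and rose 2.21-fold. Subunits of the same chain encoded in the nucleus moved little: 4 of 74 rose and 10 fell (median -0.07), and the number that rose was 2 without DMSO library 2, DMSO library 3 or ibrutinib library 2. ATP5MC2 and UQCRB fell by 0.69 and 0.47 on the log2 scale. Of 22 glycolysis genes 3 rose and 4 fell, near the 14.5% and 15.0% of all genes tested, and 1 rose without DMSO library 3 or ibrutinib library 1. PFKL, a phosphofructokinase, rose by 0.32 on the log2 scale, and SLC2A3 (-0.66) fell. LDHA had 598.5, 648 and 670 CPM with DMSO and 641.5, 618 and 547 CPM with ibrutinib (adjusted p = 0.721). No hypoxia response gene of 22 rose and 4 fell, 2 when any 1 library other than DMSO library 1 was left out. P4HA1, a collagen prolyl hydroxylase, had 471.5, 504 and 513 CPM with DMSO and 237.5, 212 and 194 CPM with ibrutinib and fell 2.31-fold.

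Lipid genes had no common direction. Cholesterol synthesis and uptake genes showed 5 of 26 higher and 5 lower, near the 14.5% and 15.0% of all genes tested. INSIG1 (0.52) was among the former and IDI1 (-0.51) and STARD4 (-0.39) among the latter. The number that rose was 3 without DMSO library 2. Of 19 fatty acid synthesis genes 6 fell and 3 rose, the latter 1 without DMSO library 1 or ibrutinib library 1. SREBF1, their transcriptional activator, had 16.3, 20.3 and 17.4 CPM with DMSO and 11.3, 11.1 and 12.2 CPM with ibrutinib and SCD, the desaturase, had 302, 315 and 307 CPM with DMSO and 225, 213 and 207 CPM with ibrutinib, and they fell 1.56-fold and 1.43-fold. Of 7 cholesterol efflux genes none fell and 1, LPCAT3, was called higher, a call lost without any 1 library other than ibrutinib library 2 (adjusted p = 0.0793 to 0.140) and with DESeq2 (adjusted p = 0.0504).

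Stress programmes showed no common direction. In the ATF4 amino acid response 8 of 32 rose and 8 fell (median 0.03). SLC7A11, the cystine transporter, had 24.9, 23.7 and 12.7 CPM with DMSO and 42.7, 41.8 and 45.3 CPM with ibrutinib and rose 2.12-fold. DDIT3, the death-associated factor CHOP, had 13.6, 19.7 and 16.4 CPM with DMSO and 8.53, 5.47 and 7.32 CPM with ibrutinib and fell 2.33-fold. ASNS and TRIB3 did not pass the test (adjusted p = 0.565 and 0.636). Of 26 endoplasmic reticulum genes 7 fell and 2 rose (1 without DMSO library 3), with the chaperones P4HB (-0.66), DNAJB9 (-0.44) and HSPA5 (-0.33) lower. Of 17 heat shock genes 5 rose and 4 fell, with AHSA1 (0.67), DNAJA1 (0.59) and HSPH1 (0.51) higher. HSPA1A had 86.4, 84.5 and 90.9 CPM with DMSO and 7.65, 61.8 and 64.9 CPM with ibrutinib, and ibrutinib library 1 stood apart. Of 22 oxidative and xenobiotic response genes 7 rose and 4 fell, the latter 2 without DMSO library 2 or 3 or ibrutinib library 2 or 3. NQO1, a quinone reductase, had 9.93, 6.63 and 7.09 CPM with DMSO and 15.3, 13.8 and 16.1 CPM with ibrutinib and HMOX1, haem oxygenase, had 10.3, 10.2 and 11.2 CPM with DMSO and 17.7, 17.1 and 15.8 CPM with ibrutinib, and both rose. The ferritin light chain gene FTL fell 1.401-fold.

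Lysosome and autophagy genes fell in 23 and rose in 6 of 44 cases (median -0.21). SQSTM1, the autophagy receptor p62, had 339, 354 and 363 CPM with DMSO and 238.8, 244 and 227 CPM with ibrutinib and fell 1.49-fold. NPC2, a cholesterol carrier of the lysosome, and GAA, its glucosidase, fell by 0.99 and 1.04 on the log2 scale. The cathepsins CTSZ (0.68) and CTSH (0.62) and LAMP1 (0.43) rose. Actin cytoskeleton genes rose in 15 and fell in 4 of 34 cases (median 0.14). LSP1, a leukocyte actin-binding protein, had 340, 329 and 331 CPM with DMSO and 753.5, 720 and 721 CPM with ibrutinib (log2 fold change 1.13 ± 0.04 SE, adjusted p = 2.67e-07). ACTB, the cytoplasmic beta actin, had 3968, 3670 and 2741 CPM with DMSO and 6237, 6051 and 4549 CPM with ibrutinib and rose 1.62-fold. TMSB4X, which sequesters actin monomers, and VIM, vimentin, fell 1.34-fold and 1.46-fold.

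Of the genes that conjugate or export drugs, UGT2B17, the glucuronosyltransferase that inactivates androgens and the enzyme studied by the authors (chr4:68537173-68576413, minus strand), had 13.4, 14.85 and 13.1 CPM with DMSO and 41.1, 37.4 and 38.1 CPM with ibrutinib. It rose 2.82-fold with no overlap (log2 fold change 1.496 ± 0.06 SE, adjusted p = 2.77e-07). Its close paralogue UGT2B15 had 4.67, 4.425 and 3.87 CPM with DMSO and 9.37, 9.52 and 9.385 CPM with ibrutinib and rose 2.18-fold, and reads may be shared between them. Of 17 UGT genes 6 could be tested and these 2 were called. Of 7 efflux transporters 4 rose and none fell, with ABCC10 (0.65), ABCC4 (0.53), ABCC1 (0.28) and ABCC5 (0.28). ABCB1, the P-glycoprotein gene, had 0 counts with DMSO and 3, 4 and 3 counts with ibrutinib, too few for a fold. Of 9 cytidine deaminase genes 2 rose and 2 fell, the former 1 without DMSO library 2, DMSO library 3 or ibrutinib library 1. APOBEC3B had 44.9, 49.0 and 51.3 CPM with DMSO and 29.4, 28.7 and 32.7 CPM with ibrutinib and fell 1.60-fold.

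Markers of other cell types were low and moved in part. The summed level of the T and NK cell list was 63.8 to 67.4 CPM with DMSO and 43.4 to 43.9 CPM with ibrutinib. Most of it came from TRAC, the T-cell receptor alpha constant gene, with 55.3, 59.2 and 57.7 CPM with DMSO and 41.5, 40.3 and 38.9 CPM with ibrutinib. KLRD1 had 8.99, 7.68 and 9.22 CPM with DMSO and 2.02, 3.58 and 4.47 CPM with ibrutinib and was called lower, a call lost without DMSO library 3 (adjusted p = 0.0561), ibrutinib library 1 (adjusted p = 0.0673) or ibrutinib library 2 (adjusted p = 0.0522). The myeloid list summed to 10.9 to 13.9 CPM and 17.3 to 19.2 CPM, mostly from ITGAM. The stromal, epithelial and erythroid list summed to 46.6 to 53.1 CPM and 46.2 to 49.8 CPM. In it COL1A1, the fibrillar collagen chain, had 4.32, 5.33 and 4.68 CPM with DMSO and 14.8, 17.5 and 15.0 CPM with ibrutinib and rose 3.29-fold, while the keratins KRT8 (-0.66) and KRT18 (-0.51), which overlap each other on opposite strands, fell. The part of these genes in other results was not tested.

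The largest changes concerned genes at low or intermediate level. Of the 12 with the largest rise without overlap between groups (log2 CPM averaging 1 or more), HCP5, a noncoding gene of the major histocompatibility region (chr6:31463170-31478936, plus strand), had 15.7, 15.45 and 15.8 CPM with DMSO and 184.6, 183.6 and 176 CPM with ibrutinib (log2 fold change 3.535 ± 0.94 SE, adjusted p = 0.0162). DDTL, a paralogue of the tautomerase gene DDT, which lies on the opposite strand and overlaps it, had 2.03, 1.27 and 1.61 CPM with DMSO and 17.3, 17.9 and 15.15 CPM with ibrutinib (log2 fold change 3.365 ± 0.85 SE, adjusted p = 0.0123). Both genes also varied several-fold within other JVM2 groups. HCP5 had 467, 6556 and 7823 counts and DDTL 76, 587 and 120 counts in the 3 idelalisib libraries. The adjusted p of HCP5 was 0.0534 to 0.0572 without any 1 DMSO library, and that of DDTL 0.0510 without DMSO library 2. FAM217B had 3.82, 3.68 and 4.54 CPM with DMSO and 27.25, 29.2 and 24.6 CPM with ibrutinib and rose 6.71-fold.

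Other members of this group lay at few CPM. MYO18B, an unconventional myosin, had 0.2645, 0.239 and 0.134 CPM with DMSO and 1.89, 2.04 and 2.43 CPM with ibrutinib (log2 fold change 3.32 ± 0.26 SE, adjusted p = 1.16e-05). ACKR1, an atypical chemokine receptor, had 0.323, 0.311 and 0.716 CPM with DMSO and 4.37, 3.635 and 3.09 CPM with ibrutinib and rose 8.06-fold. FLT1, a receptor of vascular endothelial growth factor, had 0.529, 1.77 and 1.75 CPM with DMSO and 8.225, 7.625 and 9.14 CPM with ibrutinib and rose 6.085-fold. CNR2, the cannabinoid receptor of immune cells, had 0.823, 0.694 and 0.425 CPM with DMSO and 3.32, 3.61 and 3.72 CPM with ibrutinib and rose 5.504-fold. FAM129C and PXDNL rose 5.69-fold and 6.86-fold, and SERPINB8, a protease inhibitor, rose 4.79-fold, with 1 ibrutinib library at 4.52 CPM and the other two at 14.3 and 15.8 CPM. IGF2BP3, an RNA-binding protein, had 1.175, 0.526 and 0.313 CPM with DMSO and 3.36, 3.87 and 3.48 CPM with ibrutinib, and its adjusted p was 0.0697 and 0.0716 without DMSO libraries 2 and 3.

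Of the 12 with the largest fall, BCL6, DUSP8, EGR1, GDF15 and IFNG are described above. HES2, a repressor of the HES family, had 4.20, 5.02 and 5.80 CPM with DMSO and 0.0763, 0.0887 and 0.778 CPM with ibrutinib (log2 fold change -4.004 ± 0.79 SE, adjusted p = 0.00314). NPR1, a receptor of natriuretic peptides, had 7.32, 8.085 and 5.595 CPM with DMSO and 1.22, 0.5615 and 0.705 CPM with ibrutinib and fell 8.23-fold. TNFRSF10D, a decoy receptor of TRAIL and a p53 target, had 4.61, 6.17 and 5.75 CPM with DMSO and 1.49, 0.798 and 0.802 CPM with ibrutinib and fell 5.26-fold. EVI2A lies within an intron of NF1 on the other strand, so its reads cannot be told apart from those of NF1 without strand, and had 10.7, 10.3 and 13.6 CPM with DMSO and 1.95, 1.42 and 3.60 CPM with ibrutinib. ADGRG1, an adhesion receptor of cytotoxic lymphocytes, and BMP2, a growth factor of the TGF-beta family, fell 4.33-fold and 3.86-fold. LINC02446, a noncoding gene, fell 5.27-fold.

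**Figure D4:**
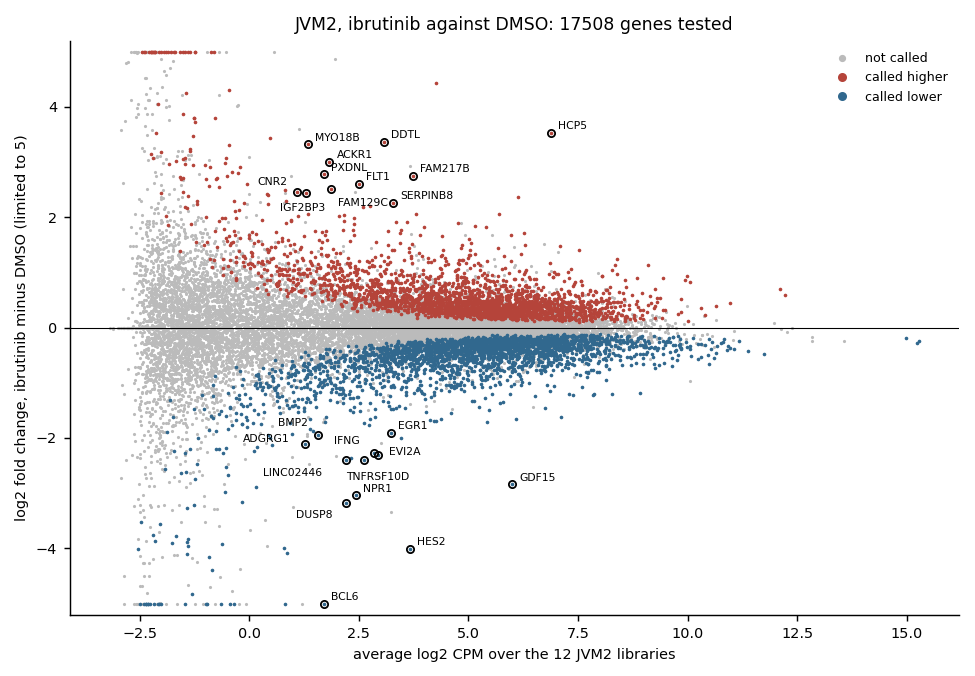
Log2 fold change of ibrutinib minus DMSO (vertical, limited to 5 in either direction) against the average log2 CPM over 12 JVM2 libraries (horizontal) for 17508 genes, with 2531 called higher in red and 2620 called lower in blue. Circles name 23 genes with the largest changes, most of which lie at an average log2 CPM under 5.

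Direct comparison with idelalisib, which lies in the same run of library numbers, called 1845 genes higher with ibrutinib (10.5% of those tested) and 1437 lower (8.21%). The difference itself leaves out the DMSO libraries, but they share the fit that gave the scaling and the spread. The drugs were given at different doses, 5 and 10 µM. Without ibrutinib library 2 or idelalisib library 3 the number called lower was 933 or 867. Mitosis genes were higher with ibrutinib in 36 of 37 cases and lower in none (median difference 1.55). TOP2A had 51.45, 54.4 and 53.6 CPM with idelalisib, below the ibrutinib libraries, which were themselves below DMSO (difference 1.70 ± 0.05 SE, adjusted p = 1.93e-08). DNA replication genes were higher with ibrutinib in 34 of 40, histone genes in 56 of 64 and glycolysis genes in 19 of 22 cases, with none lower. Interferon-stimulated genes were higher in 6 and lower in 5 of 41 (median difference 0.00).

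Single genes gave differences of both kinds. ISG15 had 148, 155 and 163 CPM with idelalisib (difference 0.03 ± 0.06 SE, adjusted p = 0.829) and EGR1 had 4.78, 4.35 and 3.415 CPM with idelalisib (difference -0.27 ± 0.14 SE, adjusted p = 0.223), so neither passed the test. BTK was higher with ibrutinib than with idelalisib, which had 63.1, 60.4 and 63.1 CPM (difference 0.34 ± 0.07 SE, adjusted p = 0.00448). GDF15 had 2.74, 3.04 and 2.503 CPM with idelalisib and was higher with ibrutinib (difference 1.055 ± 0.13 SE, adjusted p = 2.34e-04). ACKR1 (difference -1.299 ± 0.24 SE, adjusted p = 0.00367) and MYO18B (difference -0.93 ± 0.21 SE, adjusted p = 0.0115) were lower with ibrutinib than with idelalisib. PXDNL, IFNG, ADGRG1, DUSP8 and BMP2 were lower with ibrutinib as well, with log2 differences of -0.63, -1.74, -1.36, -0.79 and -0.82.

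The ibrutinib effect in JVM2 was then set against that in the other lines by an interaction test over 18 libraries. The lines were exposed for different times, so the line and the time cannot be told apart in it. Relative to MEC1, 2818 of 18851 genes had a higher effect in JVM2 (14.9%) and 2064 a lower one (10.9%), and relative to EHEB 1404 (7.45%) and 855 (4.54%). Without ibrutinib library 3 the last number was 537. Interferon-stimulated genes had a higher effect in JVM2 than in EHEB in 33 of 41 cases and a lower one in none. In EHEB itself 5 rose and 19 fell (median -0.29). Relative to MEC1, where 32 rose, 7 had a higher and 15 a lower effect. ISG15 differed from EHEB by 1.95 ± 0.15 SE, adjusted p = 1.70e-06.

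Genes of DNA replication and the ATF4 response differed between JVM2 and MEC1. The effect was higher in JVM2 in 29 of 40 replication and 27 of 31 ATF4 genes with none lower, and in MEC1 35 and 29 of them fell. Histone genes went the other way. They rose in 38 cases in MEC1 (median 0.37), and the effect was lower in JVM2 in 47 of 64 cases. Mitosis genes fell more in JVM2 than in MEC1 in 17 and than in EHEB in 18 of 37 cases, and p53 targets had a lower effect in 13 and 12 of 30. The authors list JVM2 and EHEB as p53 wild-type and MEC1 as p53 mutated, and the part of this in the counts was not tested. Glycolysis and hypoxia response genes had a higher effect than in EHEB in 14 of 22 and 13 of 22 cases. In EHEB itself 19 and 17 of them fell and 0 rose (medians -0.80 and -1.0). The medians in JVM2 were 0.07 and -0.02, so the higher effect stands beside a fall in EHEB and not a rise of these lists in JVM2. The BTK effect did not pass the test against either line (-0.02 ± 0.16 SE, adjusted p = 1.000 for MEC1 and 0.04 ± 0.16 SE, adjusted p = 0.950 for EHEB).

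**Figure D5:**
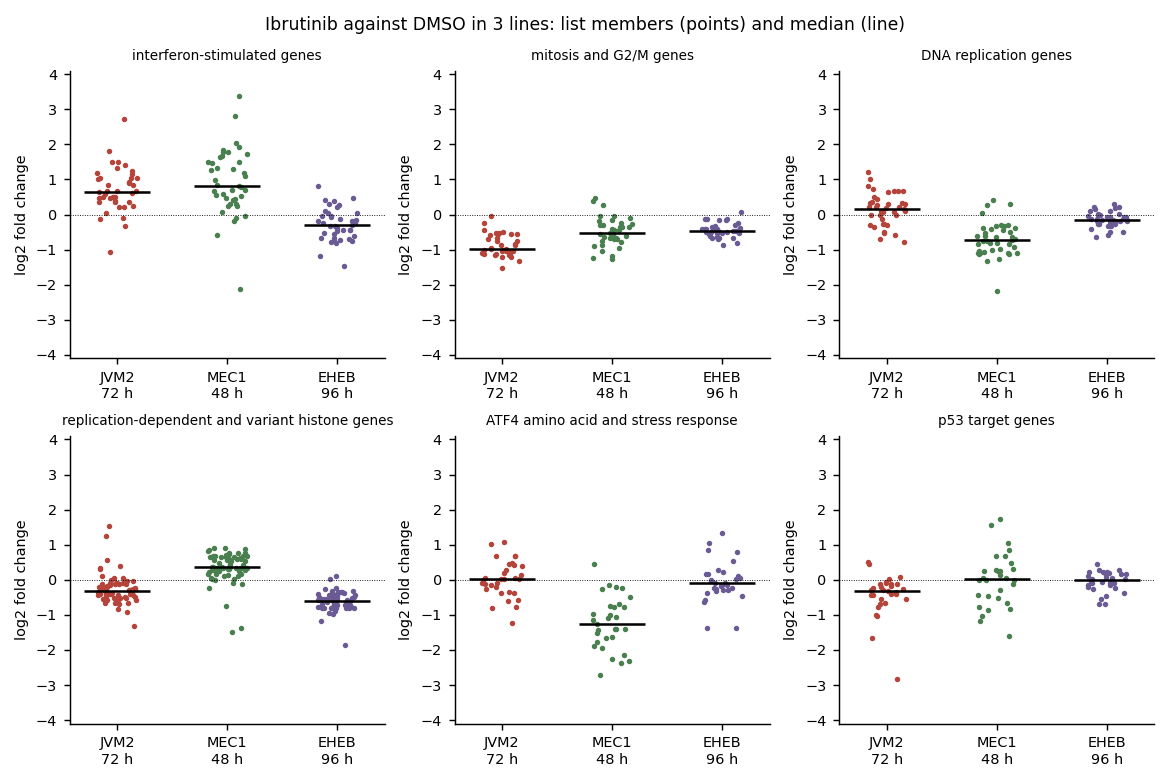
Log2 fold change of ibrutinib against DMSO for each member (points) of 6 gene lists and the list median (line) in JVM2 at 72 h, MEC1 at 48 h and EHEB at 96 h, limited to 4 in either direction. The interferon median is 0.65 in JVM2, 0.80 in MEC1 and -0.29 in EHEB, and the ATF4 median is 0.03, -1.25 and -0.10.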

How the data were processed

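RNA was sequenced by the authors as ribosomal RNA-depleted total RNA. Per the submitters' processing notes, Trimmomatic, HISAT2 2.1, StringTie 1.3.4 and edgeR 3.22.5 were used with GRCh38, and neither strand nor read length is stated. The deposited values are expected counts per gene symbol, estimated by StringTie and written by the authors as whole numbers without normalisation. A blank symbol (0.00384% of counts) was left out. Of 37549 symbols 36547 were current, 861 older and 141 unmatched in GENCODE 44, which gave positions on GRCh38.

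The 12 JVM2 libraries were fitted together in edgeR 4.0.16 (R 4.3.3) with TMM scaling, filterByExpr (minimum count 10) and the quasi-likelihood test, and p values were adjusted by Benjamini-Hochberg over all genes tested. The call threshold was 0.05. Interactions used the 18 DMSO and ibrutinib libraries of JVM2 and both other lines. The procedure was tested on simulated data with the same spread for all genes. Such data lack the replicates that stand apart in some genes here, so this test gives no error rate for the real libraries. Alternatives were DESeq2 1.42.0, limma-voom (limma 3.58.1), other scalings and filters, other sets of libraries, and fits that each omit 1 library. Fold changes of genes with 0 counts in a group were bounded with a floor of 3 counts over the group.

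Promoters are the RefSeq GRCh38.p14 stretches, searched in the 250 bases before the start. Named genes are the core genes of each list, the 12 largest changes in each direction without overlap whose log2 CPM averaged 1 or more, and up to 2 further members per list and direction. Other genes named were chosen after their values were seen, and some genes are not reported here. The experiment and its lists were chosen with earlier results of these data known. Totals of 34486439 to 53538925 counts set the counting precision, and replicates spread beyond counting error (chi-square over degrees of freedom 29.9 to 44.6). Tables used pandas 2.3.3 and numpy 2.4.6 under Python 3.11.15, and figures matplotlib 3.10.9.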

Additional observations from a re-analysis of the deposited data

Results flagged for a closer look

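Among the genes with the largest changes, BTK and core genes of the interferon and mitosis lists, the effect of ibrutinib differed between JVM2 and MEC1 for 17 genes and between JVM2 and EHEB for 18 genes in the edgeR interaction test. Over all genes tested, 14.9% had a higher and 10.9% a lower effect than in MEC1, and 7.45% and 4.54% than in EHEB. The genes with the largest changes were chosen in the same JVM2 libraries, which favours a difference from the other lines. These counts are therefore no result about the genes as a group. Values are the log2 effect in JVM2 minus that in the other line, and the exposure times differ as well.

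Against MEC1 the effect was higher in JVM2 for HCP5 (4.21, adjusted p = 0.0101), DDTL (2.765, adjusted p = 0.00336), FLT1 (3.60, adjusted p = 1.34e-06), FAM129C (2.11, adjusted p = 3.81e-04), CNR2 (1.87, adjusted p = 2.98e-06), IGF2BP3 (1.89, adjusted p = 4.11e-04) and EGR1 (1.996, adjusted p = 0.0250). It was lower for MYO18B (-5.38, adjusted p = 8.83e-05), ACKR1 (-1.27, adjusted p = 0.0384), BCL6 (-6.24, adjusted p = 0.00265), GDF15 (-2.07, adjusted p = 0.00377), LINC02446 (-1.78, adjusted p = 0.0115), TNFRSF10D (-1.195, adjusted p = 0.00242), EVI2A (-2.70, adjusted p = 0.0123), IFNG (-2.65, adjusted p = 0.00400), CCNB1 (-0.94, adjusted p = 5.56e-05) and TOP2A (-0.54, adjusted p = 9.51e-05). The positive value for EGR1 stands beside a fall in both lines (-1.90 in JVM2 and -3.90 in MEC1), and the negative value for MYO18B beside a rise in both (3.32 and 8.70).

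Against EHEB the effect was higher in JVM2 for HCP5 (4.43, adjusted p = 0.0161), DDTL (2.995, adjusted p = 0.00642), FAM217B (3.565, adjusted p = 0.0486), FLT1 (2.49, adjusted p = 1.31e-04), FAM129C (1.94, adjusted p = 0.00468), CNR2 (2.17, adjusted p = 4.01e-06), IGF2BP3 (2.75, adjusted p = 4.95e-05), SERPINB8 (2.68, adjusted p = 0.0307), MX1 (1.04, adjusted p = 1.77e-05) and ISG15 (1.95, adjusted p = 1.70e-06). It was lower for BCL6 (-5.59, adjusted p = 0.0201), HES2 (-3.13, adjusted p = 0.0236), NPR1 (-1.89, adjusted p = 0.00504), GDF15 (-2.29, adjusted p = 2.48e-04), LINC02446 (-1.39, adjusted p = 0.0483), TNFRSF10D (-1.88, adjusted p = 2.20e-04), BMP2 (-1.77, adjusted p = 0.0445) and TOP2A (-0.71, adjusted p = 2.79e-05). HCP5, DDTL, FAM217B and IGF2BP3 are among the genes whose level varied more than 4 times within a JVM2 group. So are BCL6, HES2 and EVI2A, the last listed against MEC1 only, and the part of this in the values was not tested. BCL6 had no counts in the JVM2 ibrutinib libraries, so its fitted values are no bound.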

How the results depend on the processing

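The numbers of genes higher and lower than DMSO, 2531 and 2620, stayed within 1.5 times under each alternative run. Other settings gave 2087 to 3259 higher and 1978 to 2914 lower, and omitting 1 library at a time gave 2032 to 2295 higher and 1850 to 2275 lower. Leaving out the 503 genes whose level differed by more than 4 times within a JVM2 group, an alternative chosen after seeing the data, gave 2511 and 2603. Against idelalisib, leaving out 1 library gave 1346 to 1641 genes higher and 867 to 1092 lower, in place of 1845 and 1437. The number of genes with a lower effect than in EHEB, 855, became 489 without a filter on low counts, which tests more genes, and 537 to 725 with 1 library left out. Of 229 called named genes 43 lost the call under at least 1 alternative and the others under none. Among these 43, MKI67, KRT8, KRT18 and CCND1 lost it in the fit of all 36 libraries (adjusted p = 0.0552, 0.127, 0.365 and 0.236), and HCP5, BCL6 and HES2 with limma-voom (adjusted p = 0.0764, 0.0816 and 0.246). CCR7 was not called in the main fit (log2 fold change 0.06). Its log2 fold change ranged from -0.16 to 0.19 with 1 library omitted, the lowest without ibrutinib library 1 (adjusted p = 0.0181). The causes of these changes were not tested where no other reason is given. No paired analysis was possible because the groups share no replicate numbers. Depth limits genes with few counts, such as ABCB1.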
